A study of Mus musculus with 22 samples.

Results

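Foxp3 and Ikaros were found together, with neither p300 nor NFAT1 beside them, at 2251 sites in mouse regulatory T cells (Treg cells). The sites were chosen by peak presence in the lists of wild-type (WT) cells. A site is a Foxp3 region found in each of the 2 WT Foxp3 libraries that overlaps, by at least 1 bp, an Ikaros region found in both WT libraries, and that touches no peak of any WT p300 or WT NFAT1 library. The 2251 sites made up 20.7% of the 10885 Foxp3 regions and 24.0% of the 9395 regions shared by Foxp3 and Ikaros, and they are called p300/NFAT1-negative sites here. At 4156 other Foxp3-Ikaros regions (44.2%) WT cells had a peak of p300 and one of NFAT1, and these are called p300/NFAT1-positive sites. A further 2647 had p300 without NFAT1, and 341 had NFAT1 without p300. Another 988 Foxp3 regions overlapped no WT p300 or NFAT1 peak and no Ikaros region found in both WT libraries. They are called Foxp3 regions without the partners here. Of these 988, 602 had an Ikaros peak in WT library 2 and 122 in WT library 1, so they are sites where Ikaros was not seen in both, rather than sites shown to lack it.

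The groups were IkE5-deficient Treg cells, written IkE5 (genotype IkE5-deletion), and WT Treg cells, both primary cells from spleen and lymph nodes. Chromatin immunoprecipitation sequencing was run for Foxp3, p300, NFAT1 and H3K27ac with 2 libraries per genotype, and for Ikaros with 2 libraries of WT cells. Cells of both genotypes were stimulated for 1 h with a stimulation cocktail, so no resting cells enter any comparison. They were then fixed with 1% formaldehyde for 30 min (factors) or 5 min (histone mark). The labels do not expand the name IkE5, and they give no strain, age, promoter of a recombinase or number of animals. How much Ikaros remained on chromatin in IkE5 cells was not measured in these lists.

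Foxp3 is the forkhead transcription factor that defines Treg cells. Ikaros, the product of Ikzf1, is a zinc finger protein of lymphocytes that binds DNA around a GGGAA core and recruits the NuRD chromatin remodelling complex with its histone deacetylases. p300 is an acetyltransferase that deposits acetylation of histone H3 at lysine 27 (H3K27ac), a mark of active promoters and enhancers. NFAT1, encoded by Nfatc2, enters the nucleus after calcium signals from the T cell receptor and is a known partner of Foxp3 on DNA. Sites that carry Foxp3 and Ikaros without these coactivator and calcium-driven partners are described below by their genes, their letters and their state in IkE5 cells.

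Of the p300/NFAT1-negative sites, 944 contained a start site of a gene, and 6 of these promoters are printed to show what such a site looks like. They are the first such site in each of 6 gene lists. Each is the 250 bases before the start site in RefSeq (GRCm38.p6), read 5′ to 3′ on the strand of the gene, with the Ikaros core (GGGAA, or TTCCC on the other strand) in capitals.
Hdac2: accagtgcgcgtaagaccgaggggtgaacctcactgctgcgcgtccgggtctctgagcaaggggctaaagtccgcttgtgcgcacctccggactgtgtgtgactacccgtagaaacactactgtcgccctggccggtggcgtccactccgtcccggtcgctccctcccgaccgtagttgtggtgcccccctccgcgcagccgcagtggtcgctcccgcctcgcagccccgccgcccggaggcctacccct
Rpl7a: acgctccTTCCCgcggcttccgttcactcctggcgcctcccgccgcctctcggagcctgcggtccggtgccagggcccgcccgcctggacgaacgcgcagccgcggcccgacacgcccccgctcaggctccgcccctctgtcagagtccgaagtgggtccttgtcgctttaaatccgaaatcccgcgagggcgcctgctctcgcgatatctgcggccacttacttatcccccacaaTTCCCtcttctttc
Mrpl12: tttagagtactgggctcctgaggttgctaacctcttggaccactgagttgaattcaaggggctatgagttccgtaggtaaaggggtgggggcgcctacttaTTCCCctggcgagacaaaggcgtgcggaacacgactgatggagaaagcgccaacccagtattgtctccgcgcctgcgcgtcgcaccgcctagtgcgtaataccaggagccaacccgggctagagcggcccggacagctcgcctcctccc
Psma1: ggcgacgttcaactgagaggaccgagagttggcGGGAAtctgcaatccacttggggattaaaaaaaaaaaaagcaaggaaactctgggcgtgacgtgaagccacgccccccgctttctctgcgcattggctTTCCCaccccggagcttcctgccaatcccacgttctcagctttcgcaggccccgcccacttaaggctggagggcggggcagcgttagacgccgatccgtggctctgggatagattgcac
U2af1: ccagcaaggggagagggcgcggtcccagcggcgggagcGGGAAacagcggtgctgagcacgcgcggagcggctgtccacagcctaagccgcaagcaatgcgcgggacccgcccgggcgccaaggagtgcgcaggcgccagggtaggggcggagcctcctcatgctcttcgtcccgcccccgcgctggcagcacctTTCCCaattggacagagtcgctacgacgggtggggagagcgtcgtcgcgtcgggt
Cdk7: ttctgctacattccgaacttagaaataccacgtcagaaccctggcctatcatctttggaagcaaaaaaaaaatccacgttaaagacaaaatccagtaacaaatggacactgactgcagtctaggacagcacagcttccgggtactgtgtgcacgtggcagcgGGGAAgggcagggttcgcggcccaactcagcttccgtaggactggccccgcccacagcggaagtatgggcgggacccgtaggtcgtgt
The windows are chr10:36974294-36974543 on the plus strand for Hdac2, a histone deacetylase of NuRD, and chr2:26910557-26910806 on the plus strand for Rpl7a, a protein of the large ribosomal subunit. For Mrpl12, a mitochondrial ribosomal protein, the window is chr11:120484387-120484636 on the plus strand, and for Psma1, an alpha subunit of the proteasome core, it is chr7:114276117-114276366 on the minus strand. U2af1, which recognises the 3′ splice site, has chr17:31658765-31659014 on the minus strand, and Cdk7, the kinase of the general transcription factor TFIIH, has chr13:100730943-100731192 on the minus strand. The core occurred 2 times in the windows of Rpl7a, Psma1 and U2af1, 1 time in those of Mrpl12 and Cdk7, and 0 times in that of Hdac2. At Hdac2 the Foxp3 peak centres lay 51 and 103 bp upstream of the start site and the Ikaros centres 30 and 84 bp upstream, in the 2 WT libraries. At Rpl7a the Foxp3 centres were 93 and 28 bp upstream, and the Ikaros centres were 10 bp upstream and 58 bp downstream. All 6 promoters had H3K27ac peaks in all 4 libraries, and 5 of them kept a Foxp3 peak in both IkE5 libraries. Cdk7 had one in IkE5 library 2 only.

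The p300/NFAT1-negative sites were a promoter-rich class. Of the 2251, 1421 (63.1%, 95% Wilson interval 61.1 to 65.1%, counting error only) lay within 2 kb of an end of a protein-coding gene, against 40.7% of the p300/NFAT1-positive sites, 63.8% of those with p300 alone, 34.6% of Foxp3 regions without the partners and 51.0% of all Foxp3 regions. A further 424 (18.8%) lay deeper inside a gene, 107 (4.75%) were 2 to 10 kb from one, and 299 (13.3%) were farther away. The annotation used gives gene ends without exons, so exons, introns and UTRs are not told apart. Counted on start sites, 944 sites (41.9%) contained one, against 23.1% of p300/NFAT1-positive sites, 44.2% of Foxp3-Ikaros sites with p300 alone, 14.3% of Foxp3 regions without the partners and 31.6% of all Foxp3 regions. Start sites of both strands were present in 88 of the 944 (9.32%), against 125 of the positive sites with a start site (13%). The sites were spread over all chromosomes, from 16.7% of the Foxp3 regions on chromosome 10 to 27% on chromosome X.

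Most p300/NFAT1-negative sites were far from the excluded peaks rather than just outside them. The median gap to the nearest WT p300 or NFAT1 peak was 28.3 kb, and 98 sites (4.35%) had one within 500 bp, 23 of them under 100 bp away and the nearest at 3 bp. Among the 7144 excluded regions the median overlap was 499 bp, and 27 of them (0.378%) overlapped a p300 or NFAT1 peak by under 100 bp. These values describe the rule that chose the sites and are not tested.

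Foxp3 and Ikaros peaks were centred close to each other. Across the 4 pairs of a WT Foxp3 and a WT Ikaros library, the median distance between the centres was 63 to 75 bp at p300/NFAT1-negative sites, against 69 bp between the 2 Foxp3 libraries and 59 bp between the 2 Ikaros libraries. The distance between the factors was thus close to the distance between replicates of 1 factor. At p300/NFAT1-positive sites the same 4 medians were 40 to 60 bp, against 56 and 46 bp between replicates. Overlap was part of the rule, but the distance within the overlap was not.

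Around start sites the centres of both factors lay on both sides, with medians just upstream. At the 856 p300/NFAT1-negative sites with start sites of a single strand, the Foxp3 centres had a median offset of -25.5 and -17 bp in the 2 WT libraries. The Ikaros centres had -38 and -22 bp. Downstream of the start site lay 42.3% and 45.0% of the Foxp3 centres and 36.4% and 43.1% of the Ikaros centres. The sites were taken because they contain the start site. Over all negative sites the median distance between replicate centres, 69 bp for Foxp3 and 59 bp for Ikaros, was larger than these offsets. At the 835 positive sites the offsets were -63 and -42 bp for Foxp3 and -80 and -53 bp for Ikaros. For either factor, both libraries placed the negative sites closer to the start site than either library placed the positive ones. In IkE5 cells the Foxp3 centres that were still found at negative sites had offsets of -4 and -16 bp.

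**Figure D1:**
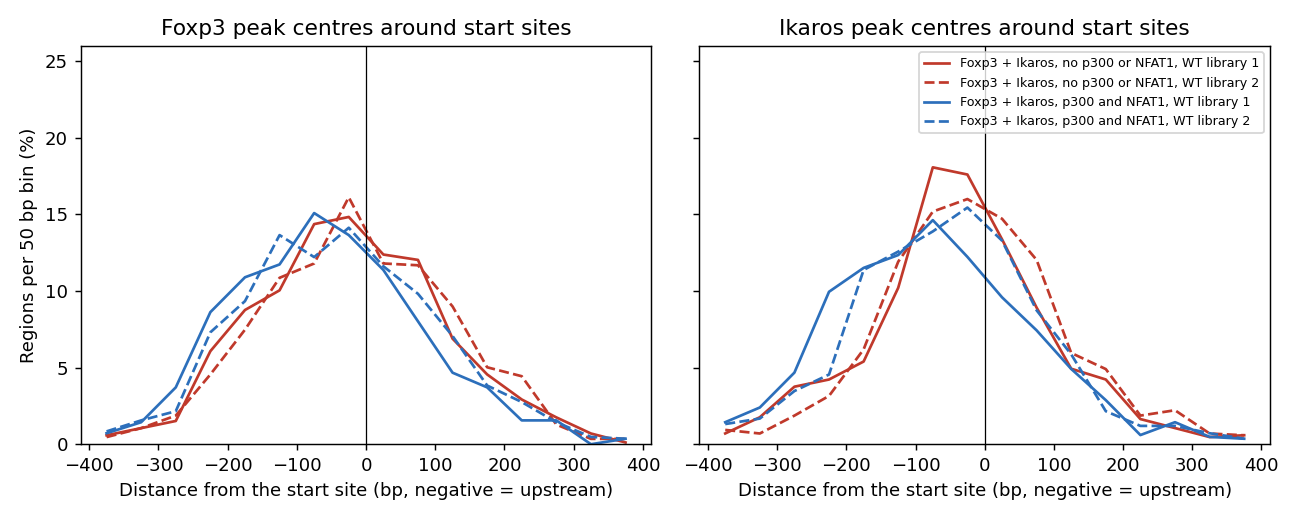
Distance of WT Foxp3 (left) and WT Ikaros (right) peak centres from the start site, in percent of regions per 50 bp bin, for p300/NFAT1-negative sites (red) and p300/NFAT1-positive sites (blue). Solid and dashed lines are the 2 WT libraries, and the red curves are shifted toward the start site, with medians of -25.5 and -17 bp against -63 and -42 bp for Foxp3, although most pairs of curves have their highest bin in the same place.

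Among the gene lists, the share of genes with a p300/NFAT1-negative site was highest for energy production and mitochondrial protein synthesis, and it was 0 for activation-induced genes. Over all 21887 protein-coding genes, 2821 (12.9%) had such a site in the gene or within 10 kb, and 3613 (16.5%) had a p300/NFAT1-positive one. Of 463 distinct genes in 17 lists, 87 had a negative site. The lists were written knowing earlier results from these data, and their counts are descriptions without a set test.

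Genes of the tricarboxylic acid cycle and respiratory chain had a p300/NFAT1-negative site in 13 of 37 cases (35.1%), against 8 (21.6%) with a positive site. Mitochondrial ribosomal protein genes had one in 14 of 40 (35.0%), against 10 (25%). In these 2 lists, of the 17, negative sites outnumbered positive ones. Counted on start sites proper, the order held for the first list, with negative sites at 7 of 26 genes with a start site in the table (26.9%), against positive ones at 4 (15.4%). It turned for the mitochondrial ribosomal proteins, with negative sites at 6 of 36 (16.7%), against positive ones at 8 (22.2%). Over 17492 genes the shares were 5.91% and 6.19%. Examples are Cs, which encodes citrate synthase and had 2 negative sites within 10 kb, Cox4i1, a subunit of cytochrome c oxidase, and Ndufa1 of complex I. Mrps23 had 2, and Mrpl12, Mrpl13 and Mrpl15 had 1 each and no positive site. Cox10, needed to make the haem of cytochrome c oxidase, had 3 negative sites and no positive one, but it was not in the lists.

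Other machinery followed at lower shares. Translation initiation factors and tRNA synthetases had a negative site at 10 of 35 genes (28.6%), proteasome subunits at 8 of 31 (25.8%), cytosolic ribosomal proteins at 10 of 40 (25%), general transcription machinery at 7 of 36 (19.4%) and splicing factors at 6 of 34 (17.6%). Positive sites were commoner in each of these lists, at 37.1%, 32.3%, 27.5%, 33.3% and 35.3% of genes in the same order. On start sites proper they were also commoner, except in the proteasome list, with 6 of 25 genes for each kind. The proteasome genes Psma1, Psma2, Psmb4 and Psmb5 had negative sites in the gene or within 10 kb and no positive one, and Psma1 had 2. A Psma1 site lay in Copb1, and the Psma2 site lay in AW209491. Rpl12, Rpl14 and Rpl7a among the ribosomal protein genes also had negative sites and no positive one. So did Prpf8, the large protein at the core of the spliceosome. Rplp2 had 2 negative sites and 1 positive one, and Eif3a, Eif3d and Eif4a1 had 1 of each kind. Most ribosomal protein genes had some Foxp3 region, 92.5% of each ribosomal list against 42.1% of all genes.

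Genes of T cell identity had p300/NFAT1-positive sites far more often than negative ones. T cell receptor and calcium signalling genes had a negative site in 6 of 30 cases (20.0%), against 23 (76.7%) with a positive site, and Treg signature genes in 4 of 27 (14.8%), against 15 (55.6%). Naive and quiescence genes had 1 of 20, against 11, and the 28 activation-induced genes had 0, against 9. Effector cytokines had 1 of 20 and interferon-induced genes 2 of 29. Ikaros family members and corepressor genes had 6 of 28 (21.4%), against 13 (46.4%). The B cell, myeloid, and CD8 T and natural killer marker lists had 0 of 10 each.

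The negative sites at T cell genes were few and are listed by what the genes do. Among Treg genes they lay at Entpd1 (the ectonucleotidase CD39), at Ikzf2 (Helios, an Ikaros family factor), at Itgae (the integrin CD103) and near Prdm1 (Blimp-1, a repressor of effector Treg cells). The Entpd1 site, chr19:40659934-40660436, had a WT p300 or NFAT1 peak 124 bp away, so it is near the boundary of the rule. The Itgae site (chr11:73138079-73138644) also lay in Haspin, the gene with the nearest end or start site. Of the 6 signalling genes with a negative site, 4 are named. The sites lay at Cd28, the costimulatory receptor (chr1:60746044-60746607), and near Nfatc2 itself (chr2:168472851-168473459, 2.95 kb from the gene). Others lay in Ppp3ca, the catalytic subunit of calcineurin, and near Bcl10, an adaptor of NF-kB signalling. The Bcl10 site lay in 2410004B18Rik, the gene with the nearest end or start site. Foxp1, a forkhead factor of quiescent T cells, held 1 negative and 10 positive sites in a locus of 597 kb. The site counted for Il4 (chr11:53605514-53606064) was nearest to Kif3a, a kinesin motor subunit gene.

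**Figure D2:**
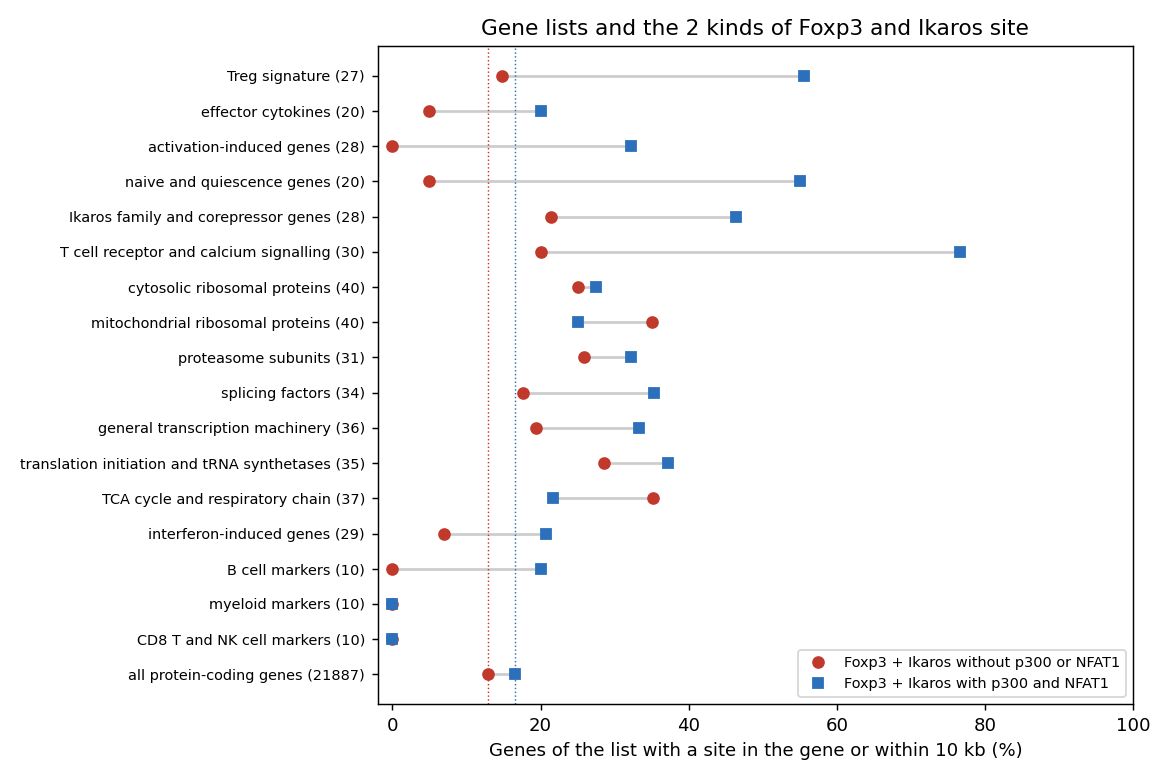
Percent of the genes of each list (list size in brackets) with a p300/NFAT1-negative site (red circles) or a p300/NFAT1-positive site (blue squares) in the gene or within 10 kb, with dotted lines at the values over all protein-coding genes. Red lies right of blue for the mitochondrial ribosomal proteins (35.0% against 25%) and for the tricarboxylic acid cycle and respiratory chain (35.1% against 21.6%), and T cell receptor signalling shows the widest gap the other way (20.0% against 76.7%).

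Some genes collected several p300/NFAT1-negative sites. Mrtfa, a coactivator of serum response factor that responds to actin, had 4 of them and 1 positive site in the gene of 178 kb or within 10 kb. Arid1b (a subunit of SWI/SNF chromatin remodellers), Asap1, Crtc3 (a coactivator of CREB), Hecw2, Mlxipl, Nsd3 (a histone methyltransferase) and Cox10 had 3 each in the gene or within 10 kb, some of which lay in a neighbouring gene, as in Tbl2 beside Mlxipl and Plpp5 beside Nsd3. Chchd1 and Fut11 also had 3, but these neighbours share the same 3 sites. Of the 4 Mrtfa sites, 1 was without a Foxp3 peak in either IkE5 library, and 2 had one in IkE5 library 2 only.

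The letters of the promoters differed between the 2 kinds of site. The start-site windows of 300 bases, 250 before and 50 after the start, were scanned for short motifs on both strands, for 1117 start sites in negative sites, 1184 in positive sites and 21263 in all (17492 genes). The NFAT motif TGGAAA was in 13.6% of the windows of negative sites, against 25.5% of those of positive sites and 19.3% of all windows. WT NFAT1 peaks were part of the rule that split the 2 kinds of site, so this motif difference is not independent of the rule. The Ikaros core GGGAA was in 62.5%, against 69.0% and 63.0%, a share at negative sites close to that of all windows. The longer TGGGAA, which contains that core, was in 22.9%, against 24.8% and 24.5%. The forkhead motif TGTTTAC was in 2.33%, against 2.45% and 3.01%, and the forkhead repeat unit TGTTTGT in 4.92%, against 5.07% and 5.73%.

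Motifs of ubiquitous promoter factors were common. The ETS motif CCGGAAG was in 28.6% of windows at negative sites, against 33.4% at positive sites and 11.6% of all. GGGCGG, bound by SP and KLF factors, was in 65.8%, against 61.2% and 46.2%. The NF-Y motif CCAAT was in 45.5%, against 40.4% and 38.2%, and the YY1 motif AGATGGC in 11.4%, against 8.53% and 6.01%. The NRF1 motif GCGCATG was in 7.52%, against 9.54% and 4.80%, and the cyclic AMP response motif TGACGTC in 6.89%, against 9.21% and 3.84%. The AP-1 motif TGANTCA was in 3.13%, against 4.73% and 6.99%, and the RUNX motif TGTGGTT in 4.12%, against 5.15% and 4.71%. Base composition moved along with these shares. The median GC content was 60.7% at negative sites, against 59.0% at positive sites and 56.3% over all windows, and the median ratio of observed to expected CpG was 0.796, against 0.843 and 0.567. Its part in the motif shares was not tested, and a match is a string of letters, not a bound site.

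**Figure D3:**
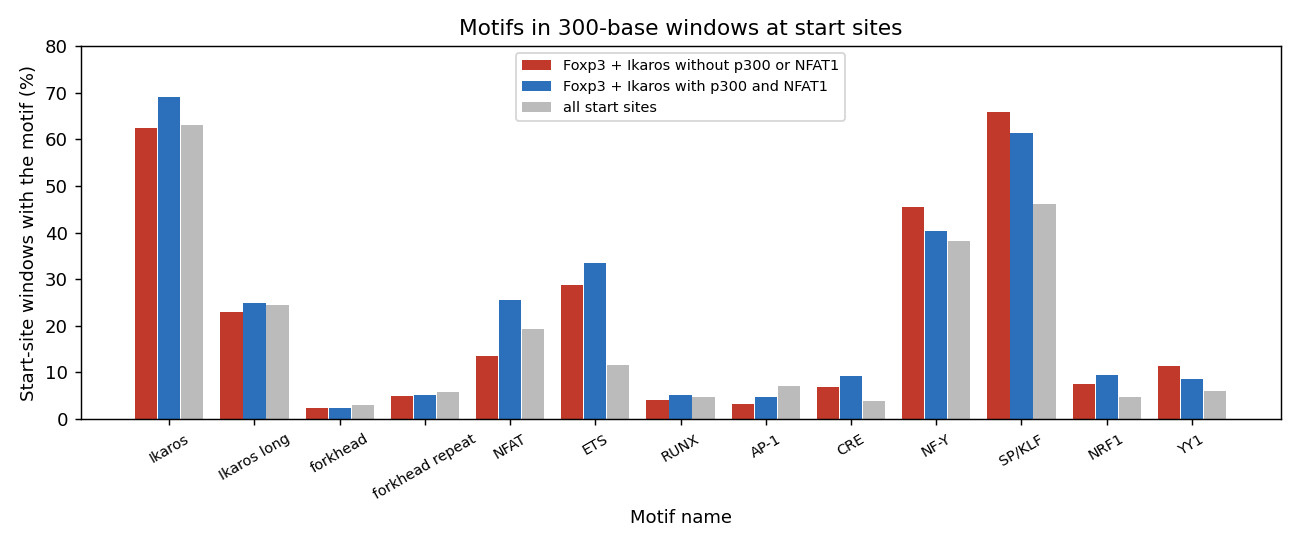
Percent of 300-base start-site windows with each motif, for p300/NFAT1-negative sites (red, 1117 windows), p300/NFAT1-positive sites (blue, 1184) and all start sites (grey, 21263). The NFAT motif is rarer in red (13.6%) than in blue (25.5%) or grey (19.3%). Red and blue were split by WT p300 and NFAT1 peaks, so this difference is not independent of the rule. The ETS and SP/KLF motifs are commoner in both kinds of site than in all windows.

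Foxp3 stayed at most p300/NFAT1-negative sites in IkE5 cells, in a smaller share than at positive sites. A Foxp3 peak was present at 65.6% and 81.6% of the negative sites in the 2 IkE5 libraries, against 92.5% and 90.2% of the positive sites, 83.1% and 87.8% of those with p300 alone, and 52.0% and 59.0% of the Foxp3 regions without the partners. WT values are 100% by the rule. The mean over the IkE5 libraries was 73.6% ± 11.3 (SD, n = 2) at negative sites and 91.4% ± 1.63 at positive sites. The IkE5 values of the 2 classes did not overlap, and the difference of -17.8 percentage points had an exact permutation p of 0.333 (2-sided), the smallest that 2 libraries against 2 allow. Both classes were read in the same libraries, so their values are not independent.

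Site by site, 1315 negative sites (58.4%) had a Foxp3 peak in both IkE5 libraries, against 70.6% of all Foxp3 regions. Peaks in 1 of the 2 were found at 684, and 252 (11.2%) had none in either, against 7.78% of all Foxp3 regions. IkE5 library 2, with the higher share, had the shorter list (17265 peaks, against 21619 in library 1) and more of its peaks near gene ends (45.3%, against 36.4%). The part of that difference in the result was not tested. Split by position, negative sites within 2 kb of gene ends had 69.5% and 84.7%, and those farther away had 58.9% and 76.4%, so the gap between the libraries was present in both.

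Among list genes, sites without Foxp3 in either IkE5 library lay near Prdm1 (7.16 kb from the gene) and at Eif5, a translation initiation factor gene. Sucla2, a subunit of succinate-CoA ligase, and Ndufb8 of complex I also had one. Another near Cs lay in Coq10a, a coenzyme Q binding protein gene. All 5 sites had H3K27ac in all 4 libraries.

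**Figure D4:**
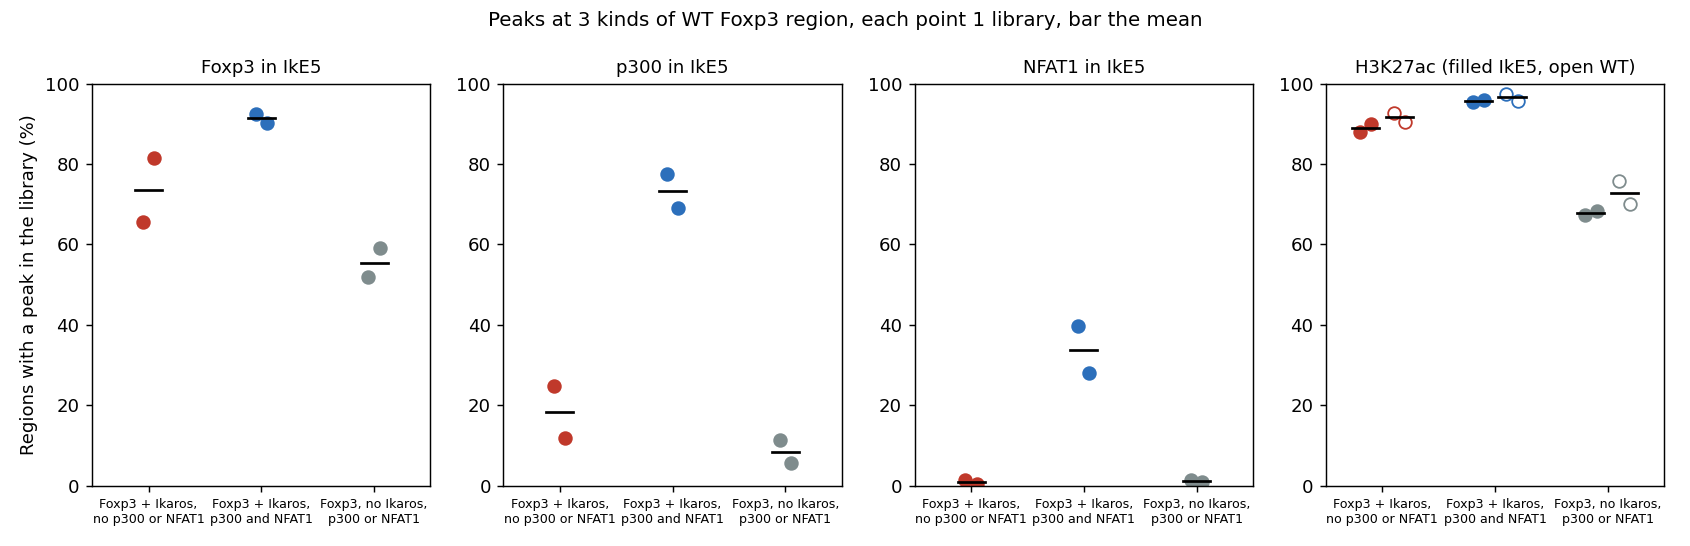
Percent of regions with a peak of Foxp3, p300, NFAT1 and H3K27ac in each IkE5 library (filled points, bars are means). Shown are p300/NFAT1-negative sites (left), p300/NFAT1-positive sites (middle) and the 988 Foxp3 regions without the partners (right). These 988 overlapped no Ikaros region found in both WT libraries, but 602 had an Ikaros peak in WT library 2. Open points are WT libraries, for H3K27ac. The negative sites lie between the other classes for Foxp3 (65.6% and 81.6%) and p300 (24.8% and 12%), and H3K27ac is near 90% in all 4 libraries.

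Since p300 and NFAT1 were absent from these sites in WT by the rule, they can only appear in IkE5 cells, and that direction is no finding. A p300 peak was found in IkE5 at 558 (24.8%) and 269 (12%) negative sites, and in both libraries at 135 (6.0%), against 4.94% of all Foxp3 regions without WT p300 or NFAT1. NFAT1 peaks were found at 30 (1.33%) and 11 (0.489%), and in both libraries at 6 (0.267%), against 0.309%. Both of these backgrounds include the negative sites. At the 988 Foxp3 regions without the partners, p300 was found at 11.3% and 5.57%, and in both libraries at 2.53%. For NFAT1 in both libraries the share there was 0.405%. Any p300 or NFAT1 peak of an IkE5 library touched 701 sites (31.1%), which leaves 1550 without one in any of the 8 p300 and NFAT1 libraries.

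The rule was also run with the genotypes exchanged for Foxp3, p300 and NFAT1. The exchanged rule takes Foxp3 in both IkE5 libraries, Ikaros in both WT libraries and no IkE5 p300 or NFAT1 peak, and found 2601 regions. Ikaros was mapped in WT cells only, so the exchange is not symmetric. The part of this in the values below was not tested. Of these, 35.3% and 25.5% had p300 in the WT libraries (15.3% in both), and 15.4% and 10.6% had NFAT1 (5.96% in both). Each value is above its counterpart for IkE5 peaks at the negative sites of WT. IkE5 NFAT1 lists are shorter throughout (4908 and 3435 peaks, against 7825 and 6850 in WT). The p300 lists were not shorter in IkE5 (11670 and 8971 peaks, against 11457 and 8775 in WT). The part of list length in these values was not tested. Foxp3 was found in the WT libraries at 80.5% and 85.5% of the 2601 regions (72.4% in both). IkE5 Foxp3 peaks were at 65.6% and 81.6% of the negative sites (58.4% in both). The 2 sets of regions shared 772, which is 34.3% of the WT set and 29.7% of the IkE5 set. Choosing regions on 1 WT library and reading the other gives the same kind of value between WT replicates. Regions without p300 or NFAT1 in WT library 1 had p300 in WT library 2 at 20.9%, and those without in library 2 had p300 in library 1 at 35.3%. For NFAT1 the values were 4.57% and 13.2%, read in the longer WT lists. The same choice between IkE5 replicates, at IkE5 Foxp3 regions with Ikaros, gave p300 at 19.1% in library 2 and 40.5% in library 1. For NFAT1 it gave 0.774% in library 2 and 3.29% in library 1. IkE5 NFAT1 peaks at the negative sites were at 0.489% in library 2 and 1.33% in library 1. The replicate values are for regions lacking a peak in 1 library, whereas the negative sites lack one in both WT libraries.

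Of the 6 sites with NFAT1 in both IkE5 libraries, 4 also had p300 in both. They lay in Tnfrsf19, a TNF receptor family member (chr14:61046111-61046813), in Sema4d, a semaphorin of lymphocytes (chr13:51776235-51776744), in Rgs9, a regulator of G protein signalling (chr11:109269444-109269965), and in Runx2, a Runt-domain transcription factor (chr17:44564563-44565202). The Tnfrsf19 site had a WT p300 or NFAT1 peak 386 bp away and the Rgs9 site one 1383 bp away, while at Runx2 the nearest was 89127 bp away. The remaining 2 sites, named because they complete the 6, were nearest to Nefl and Hectd2.

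H3K27ac covered most p300/NFAT1-negative sites in both genotypes. A peak was present at 88.0% and 90.0% in IkE5 libraries, against 92.6% and 90.5% in WT libraries, so neither WT library was below either IkE5 library. The difference was -2.60 percentage points (89.0% ± 1.44 against 91.6% ± 1.48, SD, n = 2 each, exact permutation p = 0.333, 2-sided, the smallest possible). Near gene ends the shares were 96.5% and 97.0% in IkE5, against 97.7% and 96.8% in WT, which overlap. Farther away they were 73.4% and 78.1% in IkE5, against 83.9% and 79.9% in WT. The WT library with the highest share also had the longest list, 53032 peaks covering 79.6 Mb, and its part in the result was not tested. Positive sites had 95.4% and 95.9% in IkE5, against 97.5% and 95.6% in WT. Foxp3 regions without the partners had 67.3% and 68.4% in IkE5, against 75.7% and 70.0% in WT, a difference of -5.01 percentage points.

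The acetylated stretch was narrower than at positive sites. Its median width at negative sites was 1615 and 1676 bp in IkE5, against 1730 and 1590 bp in WT. At positive sites it was 2400 and 2461 bp in IkE5, against 2725 and 2293 bp in WT. Within each of the 4 libraries the negative sites had shorter peaks than the positive sites. Foxp3 regions without the partners had widths close to those of the negative sites, 1668 and 1788.5 bp in IkE5, against 1778.5 and 1722.5 bp in WT.

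Counted by library, 1856 negative sites (82.5%) had H3K27ac in all 4 libraries and 81 (3.60%) in none. In both IkE5 libraries and no WT library it was found at 17 (0.755%), against 0.606% of all Foxp3 regions. In both WT libraries and no IkE5 library it was found at 45 (2.00%), against 1.56% of all Foxp3 regions. Both shares are near the background. Sites with acetylation in all 4 libraries were within 2 kb of a gene end in 72.1% of cases, while those seen in IkE5 only (3 of 17), in WT only (6 of 45) or in none (13 of 81) were mostly away from gene ends. At list genes the only one was a WT only site by Mrps23 (chr11:88194279-88194898). A WT only site was also present in Arid1b.

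Around p300/NFAT1-negative sites the covered length of H3K27ac changed at few places in the test as set, and the number depended on the settings. In windows of 5 kb on each side, 1849 sites had a mean covered length of at least 1000 bp and were tested within a fit over 9647 Foxp3 regions (limma, Benjamini-Hochberg). At an adjusted p under 0.05, 3 rose in IkE5 (0.176% of all tested regions did) and 6 fell (0.332%). An unadjusted p under 0.05 was reached by 145. The median log2 change was -0.03, against -0.04 over all regions. Without scaling to the total covered length no site was called (151 at an unadjusted p under 0.05), nor was any without WT library 2 (82). In windows of 2 kb on each side 7 were higher and 27 lower. Without IkE5 library 2 the counts were 11 higher and 40 lower, and without WT library 1 they were 5 and 8. The median was 0.04 without IkE5 library 1 and 0.08 without WT library 2, so its sign rests on single libraries.

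For the called windows, lengths in kb are given before scaling to the total covered length. Their log2 changes and limma adjusted p are from scaled lengths. The 3 windows that rose were led by the Runx2 site described above, inside a gene for a factor best known from bone formation. It had 7.42 and 6.21 kb of H3K27ac in IkE5, against 1 and 0 kb in WT, a log2 change of 2.52 ± 0.28 (SE, limma adjusted p = 0.00951, 3.20e-09 to 0.389 over 9 alternatives, called in 6). This site also had Foxp3, p300 and NFAT1 peaks in both IkE5 libraries. The window 3.39 kb from Ccl1, a chemokine gene (chr11:82183201-82183731), had 9.06 and 6.75 kb in IkE5, against 2.96 and 2.25 kb in WT. Its log2 change was 1.28 ± 0.23 (limma adjusted p = 0.0391, called in 2 of 9 alternatives), and it had no Foxp3 peak in IkE5. A window nearest to Nol10 (chr12:17471330-17471854, 41.2 kb away) had 4.63 and 4.62 kb in IkE5, against 1.94 and 0.886 kb in WT (log2 change 1.26 ± 0.22, limma adjusted p = 0.0391, called in 5 of 9 alternatives).

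Of the 6 windows that fell, 5 had at most 1 kb of H3K27ac left in either IkE5 library. At Igf1r, the receptor of insulin-like growth factor (chr7:68205709-68206261), IkE5 had 0 and 0.5 kb, against 3.89 and 4.57 kb in WT (log2 change -2.10 ± 0.29, limma adjusted p = 0.0138, called in 5 of 9 alternatives). In Ntn4, a netrin gene (chr10:93697660-93698285), it was 0 and 0.5 kb in IkE5, against 4.40 and 4.64 kb in WT. Near Ms4a4a (chr19:11371012-11371637), it was 0 and 1 kb in IkE5, against 6.60 and 4.57 kb in WT. No H3K27ac was listed in IkE5 in a window inside Prkg1, nearest to the end of Cstf2t (3.36 and 2.36 kb in WT), or in A530021J07Rik (3.19 and 2.91 kb in WT). Near Micu2, a regulator of the mitochondrial calcium uniporter, it was 0.966 and 1.25 kb in IkE5, against 4.63 and 4.67 kb in WT. Over these 6 windows the limma adjusted p was 0.0138 to 0.0298, and the log2 change of the 4 with some coverage in IkE5 was -1.45 to -2.19. The groups did not overlap at any of the 9 windows, a trait that follows from calling them. At low coverage the log2 change depends on the 1000 bp added before the logarithm. Foxp3 was still present in both IkE5 libraries at Igf1r and Ms4a4a, in library 2 at Micu2, and in neither at Ntn4, Cstf2t and A530021J07Rik.

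**Figure D5:**
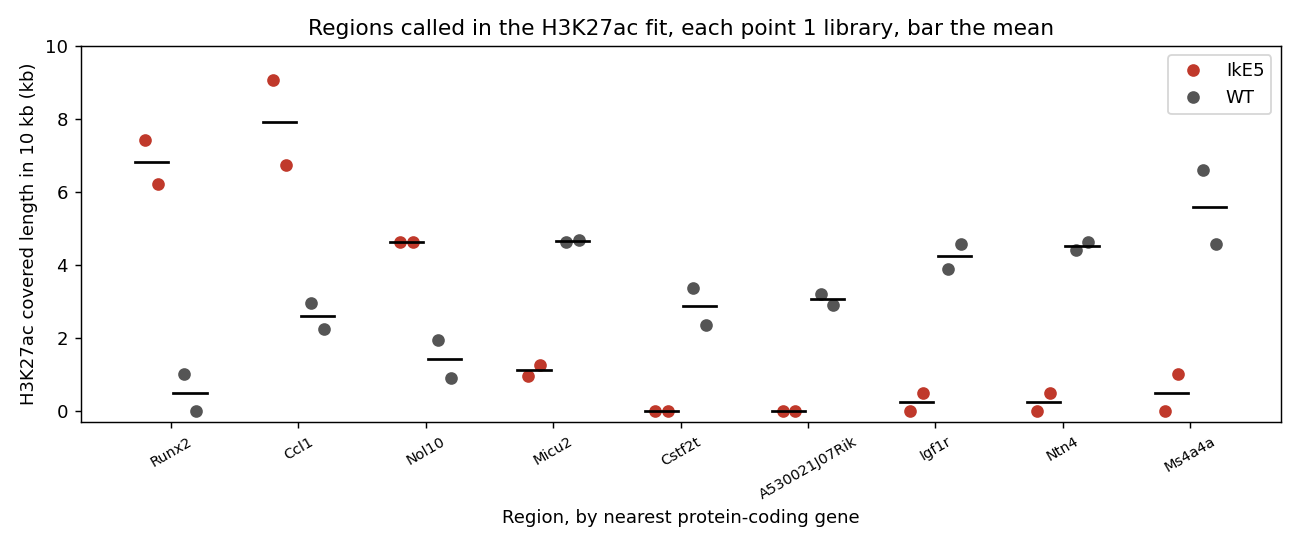
H3K27ac covered length (kb, of a 10 kb window) in each IkE5 library (red) and WT library (grey) at the 9 called p300/NFAT1-negative sites, named by nearest protein-coding gene, with bars at the means. The first 3 windows are higher in IkE5, led by Runx2 with 7.42 and 6.21 kb against 1 and 0 kb in WT. The other 6 are lower. Lengths are shown before scaling to the total covered length, whereas the calls used scaled lengths.

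The cell type on the labels was checked against H3K27ac in marker genes. All 4 libraries had covered length at Foxp3, Il2ra, Ctla4, Ikzf2, Cd3e and Cd4. None had any at the myeloid genes Lyz2 and Csf1r or at the natural killer gene Ncr1. Pax5, a B cell factor, had 0.671 to 1.15 kb in all 4, and Cd8a had 0 and 0 kb in IkE5, against 0.5 and 1.30 kb in WT. In bulk chromatin, fewer cells with a mark and less of it per cell cannot be told apart.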

How the data were processed

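The authors deposited a peak list for each of 18 of 22 samples, holding chromosome, start and end with no score. The 4 inputs are not analysed here. Per the submitters' processing notes FastQC, Bowtie2, MACS2, bedtools and HOMER were used with mm10; the role of each tool, the peak threshold and the input are not given in the sources used here. Foxp3, Ikaros, p300 and NFAT1 peaks were 500 bp wide but for a few exceptions, so they carry no signal height, and read depth is unknown. List length moves with depth, enrichment and threshold as well as with binding. No pair of lists (153 pairs) shared more than 0.745% of its intervals, so none was counted as a copy.

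Overlaps were computed in Python 3.11.15 with numpy 2.4.6 and scipy 1.17.1. Genes and start sites came from RefSeq (GRCm38.p6, the assembly of mm10): 21887 protein-coding genes, of which 17492 had a start site in the sequence table. Of 468 list names, 466 matched a gene. H3K27ac covered length was scaled to the mean total over the libraries and tested as log2(length + 1000 bp) with limma 3.58.1 (R 4.3.3) with a trended prior over all WT Foxp3 regions with a mean of at least 1000 bp. The script was tested on simulated data. Shares were compared by the exact permutation test over libraries. The labels do not say that libraries came from separate animals, so a p-value reflects variation among libraries only, perhaps technical. Replicate numbers in the labels were not used as pairs.

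Members and lists were chosen with earlier results of these data known. Named genes were up to 4 per list with most sites, the 10 genes with most sites, called windows, sites with p300 and NFAT1 in both IkE5 libraries, and list-gene sites without IkE5 Foxp3 or with H3K27ac in 1 genotype only. Alternatives changed the overlap, exclusion rule, distance, window, pseudocount, filter, scaling, replicate block and the libraries used.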

Additional observations from a re-analysis of the deposited data

How the results depend on the processing

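The difference in H3K27ac share between the genotypes and the 9 called windows kept their direction under the alternatives run. Single shares and counts were read only as similar or moved, so they could not show a reversal. The median log2 change of H3K27ac changed sign. It was -0.03 with all libraries, 0.04 without IkE5 library 1 and 0.08 without WT library 2. Without IkE5 library 2 it was -0.11, and without WT library 1 it was -0.15. The number of sites depended on the libraries most: 4666 when a p300 or NFAT1 peak in both WT libraries was needed to exclude a region, and 5420 to 7783 with 1 WT library of each factor left out, where regions need only 1 list. The share with Foxp3 in IkE5 was 60.2 to 81.6% with a library left out. The share within 2 kb of a gene end became 60.8% at 1 kb, 67.3% at 5 kb, and 50.4 to 52.2% with a WT library number left out. Sites with H3K27ac in IkE5 only numbered 29 under the looser exclusion, 42 when the peak had to cover the whole site, and 25 to 86 with a library left out; in WT only they numbered 70, 83 and 65 to 238. The H3K27ac fit gave 1 higher and 0 lower with a pseudocount of 250 bp, 5 and 16 without the filter, 0 and 0 without scaling, 7 and 27 in windows of 2 kb on each side, and 0 to 11 and 0 to 40 with a library left out, where a lone library is assumed to vary like the other group. With the replicate block the counts were 32 and 65; same-numbered libraries deviated together (correlation 0.498), but with 2 pairs this is a hint, and the labels share only a number. Of 80 alternatives for the 9 called windows, 38 lost the call. The cause of these shifts was not tested. With no reads in the lists, a missing peak may be a peak under the threshold.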
